A study of Mus musculus with 13 samples.

Results

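The vitamin D receptor, its retinoid X receptor partners and the enzymes that make and destroy the hormone were followed in cultured mouse prostate cells given that hormone. The set was fixed by gene symbol: every probe set annotated to Cyp24a1, Cyp27b1, Cyp2r1, Cyp27a1, Vdr, Rxra or Rxrb was taken, which gave 12 probe sets for 7 genes out of 18193 named genes on the array. Each gene was read through its main probe set, the brightest of its probe sets on average over all 13 arrays, with the others given beside it. The cells were adult prostatic progenitor/stem cells from wild-type animals (strain label B1/6; 127/SVEV), 10 wk of age, and were used at passage 22. At 70% confluency they received 0.1% ethanol as vehicle or 100 nM 1,25(OH)2D3, the hormonal form of vitamin D (1,25D hereafter). The 4 groups were vehicle for 6 h (3 arrays), 1,25D for 6 h (3 arrays), vehicle for 48 h (3 arrays) and 1,25D for 48 h (4 arrays), with the medium of the longer groups renewed daily. No allele was altered in any group, and whether the replicates were separate cultures is not stated, so the p-values measure the spread between these arrays, which may be technical.

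Vitamin D is hydroxylated first by Cyp2r1 and Cyp27a1, mostly in liver, and then by Cyp27b1, mostly in kidney but also in several epithelia, to give 1,25D. The hormone binds Vdr, which pairs with a retinoid X receptor such as the products of Rxra or Rxrb and binds DNA at vitamin D response elements. Cyp24a1 hydroxylates the side chain of the hormone and starts its breakdown, and its gene is a classic direct target of the receptor in most cells that hold Vdr, prostate epithelium included. The set thus holds the synthesis, the receptor complex and the feedback arm of the pathway.

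Promoters of Cyp27b1, Cyp2r1, Cyp27a1, Vdr, Rxra and Rxrb, 6 of the 7 genes, were matched in the RefSeq promoter table of build GRCm38.p6, and that of Cyp24a1 was not examined. Vdr and Rxrb are shown because their signals deviated together over the arrays, and Cyp27b1 because its signal stayed near the bottom of the range in every group. Each line is the 250 bases before the transcription start, 5′ to 3′ along the gene's own strand. Capitals mark the GC box GGGCGG in Vdr and Rxrb, and the letters TATATA in Cyp27b1.
Vdr, chr15:97908297-97908546, minus strand: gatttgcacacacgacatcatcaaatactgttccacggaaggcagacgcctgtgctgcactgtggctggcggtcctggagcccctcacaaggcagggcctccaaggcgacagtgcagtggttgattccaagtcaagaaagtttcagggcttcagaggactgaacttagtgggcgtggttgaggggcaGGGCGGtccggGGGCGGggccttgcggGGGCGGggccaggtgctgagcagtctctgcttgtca
Rxrb, chr17:34031562-34031811, plus strand: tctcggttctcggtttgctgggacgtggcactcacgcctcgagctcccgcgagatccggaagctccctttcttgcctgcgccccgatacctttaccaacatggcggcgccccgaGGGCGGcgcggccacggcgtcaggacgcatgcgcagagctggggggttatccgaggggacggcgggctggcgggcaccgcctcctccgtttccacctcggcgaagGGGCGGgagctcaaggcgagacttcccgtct
Cyp27b1, chr10:127047996-127048245, plus strand: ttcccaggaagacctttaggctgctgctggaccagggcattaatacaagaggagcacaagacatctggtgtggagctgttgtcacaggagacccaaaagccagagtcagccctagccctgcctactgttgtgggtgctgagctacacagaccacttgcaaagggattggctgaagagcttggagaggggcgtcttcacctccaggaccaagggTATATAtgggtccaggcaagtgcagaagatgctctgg
The Vdr window held 3 GC boxes, which began 63, 52 and 36 bases before the start, and this Rxrb window held 2, at 136 and 31 bases. The Cyp27b1 window held none, and TATATA began 37 bases before its start. Counting both strands, GGGCGG was present in 32.9% of 27025 promoter windows of the same length, and TATATA in 5.56%. The receptor-binding hexamer AGGTCA was in none of the 3 windows shown (13.8% of all promoters held it). Among the windows not shown, one of Rxra held it 2 times, at 87 and 48 bases before the start. The variant AGTTCA, which 11.9% of all promoters held, was matched once in the Vdr window. That match was on the opposite strand, 91 bases before the start. The Cyp27a1 window, not shown, also held the variant, at 158 bases. The DR3 element by its name, a direct repeat of such hexamers, was matched in no window of these 6 genes, and 0.215% of all promoters in the table held it. These matches describe letters in the windows, and no binding was measured.

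The arrays give relative signal on a log2 scale, and their number limits the precision. Vehicle 6 h replicate 1 and 1,25D 48 h replicate 4 stood apart from the rest: their interquartile ranges were 3.03 and 2.95 on the log2 scale, against 3.27 to 3.46 on the other 11 arrays. Treatment changes of main probe sets were therefore also fitted without these arrays. Of the changes stated in the text, those that then moved by over 1.5 times or changed sign are given both ways. The labelled cell type was checked against markers. All 6 basal markers lay above the 60th percentile of their arrays, with Krt5 at percentile 99.2 and Krt14 at 99.9, as did all 5 general epithelial markers and 4 of 6 measured luminal markers (Krt8 and Krt18 among them), whereas Pbsn lay at percentile 6.39. Of markers of other cells, 1 of 10 stromal, 3 of 9 immune, 0 of 6 endothelial and 1 of 3 measured neuroendocrine or nerve genes lay above it, and Ptprc, which defines leukocytes, lay at percentile 16.4. The summed immune marker levels were 46.8 to 50.9, 46.5 to 48.2, 48.3 to 48.7 and 48.6 to 51.3 log2 units in vehicle 6 h, 1,25D 6 h, vehicle 48 h and 1,25D 48 h. The luminal sums were 51.3 in all vehicle 6 h arrays and 53.3 to 54.0 in the 1,25D 6 h arrays, then 54.3 to 54.8 and 54.5 to 55.4 at 48 h. The general epithelial sums were 55.6 to 56.0 and 56.4 to 56.8 at 6 h, and 58.7 to 58.8 and 58.2 to 58.7 at 48 h. Over all genes 0.852% were called with 1,25D at 6 h and 2.39% at 48 h. Of the markers, the luminal Tmprss2 and Acpp and the general epithelial Krt19 were called higher at 6 h. At 48 h the luminal Acpp and Krt19 were called higher, and the luminal Krt8 and Krt18 and the general epithelial Cldn7 lower. The immune marker Cd68 was also called higher at 48 h. The part of these shifts in the results below was not tested. In bulk RNA, fewer expressing cells and less RNA per cell cannot be told apart.

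Cyp24a1, the hydroxylase that begins the breakdown of the hormone, rose with 1,25D at both times, and its signal went from the lower part of the array to its top within 6 h and was still near the top at 48 h. Signals of its main probe set, 1418866_at, were 4.78, 4.41 and 4.40 in the vehicle 6 h arrays and 13.05, 13.21 and 12.81 after 6 h of 1,25D. At 48 h they were 4.65, 4.92 and 4.10 in vehicle and 12.18, 12.56, 12.39 and 12.43 in 1,25D. Every treated array was far above every vehicle array, and the treated arrays at 6 h were all above those at 48 h. In percentiles of the array the group means were 26.3 and 27.3 in vehicle, and 99.4 and 98.9 in 1,25D at 6 h and 48 h. The response was 8.50 at 6 h on the log2 scale (SE 0.20, 95% interval 8.07 to 8.92), a 361-fold rise with an adjusted p of 3.3e-11 in limma. At 48 h it was 7.83 (SE 0.18, interval 7.44 to 8.23), a 228-fold rise with an adjusted p of 4.0e-11. On this probe set Cyp24a1 ranked 1 of 18193 genes by the size of its rise at both times. The main probe set was chosen with the treated arrays included, so this rank is a description and not independent of the rise.

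A second Cyp24a1 probe set, 1418867_at, gave the same direction with a smaller change. Its vehicle signals were 6.40, 5.36 and 5.41 at 6 h and 5.44, 5.76 and 5.11 at 48 h. Its 1,25D signals were 11.39, 11.53 and 11.19 at 6 h and 9.98, 11.37, 10.32 and 10.35 at 48 h. Treated and vehicle arrays again did not overlap at either time. The rise on this probe set was 50.1-fold at 6 h (log2 change 5.65, SE 0.33) and 33.5-fold at 48 h (5.07, SE 0.31), both called (adjusted p of 2.0e-06 and 5.3e-07). The size of the fold thus depended on the probe set. Its vehicle means were 5.72 and 5.44, at percentiles 51.9 and 47.0 of the array, against 4.53 and 4.56 on the main probe set. The main probe set was thus the brighter of the pair only through the 1,25D arrays. Each fold is a relative signal of its own probe set and not a measure of molecules. The vehicle signals of the main probe set lay in the lower part of the array, so the size of its fold rests on dim values.

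**Figure D1:**
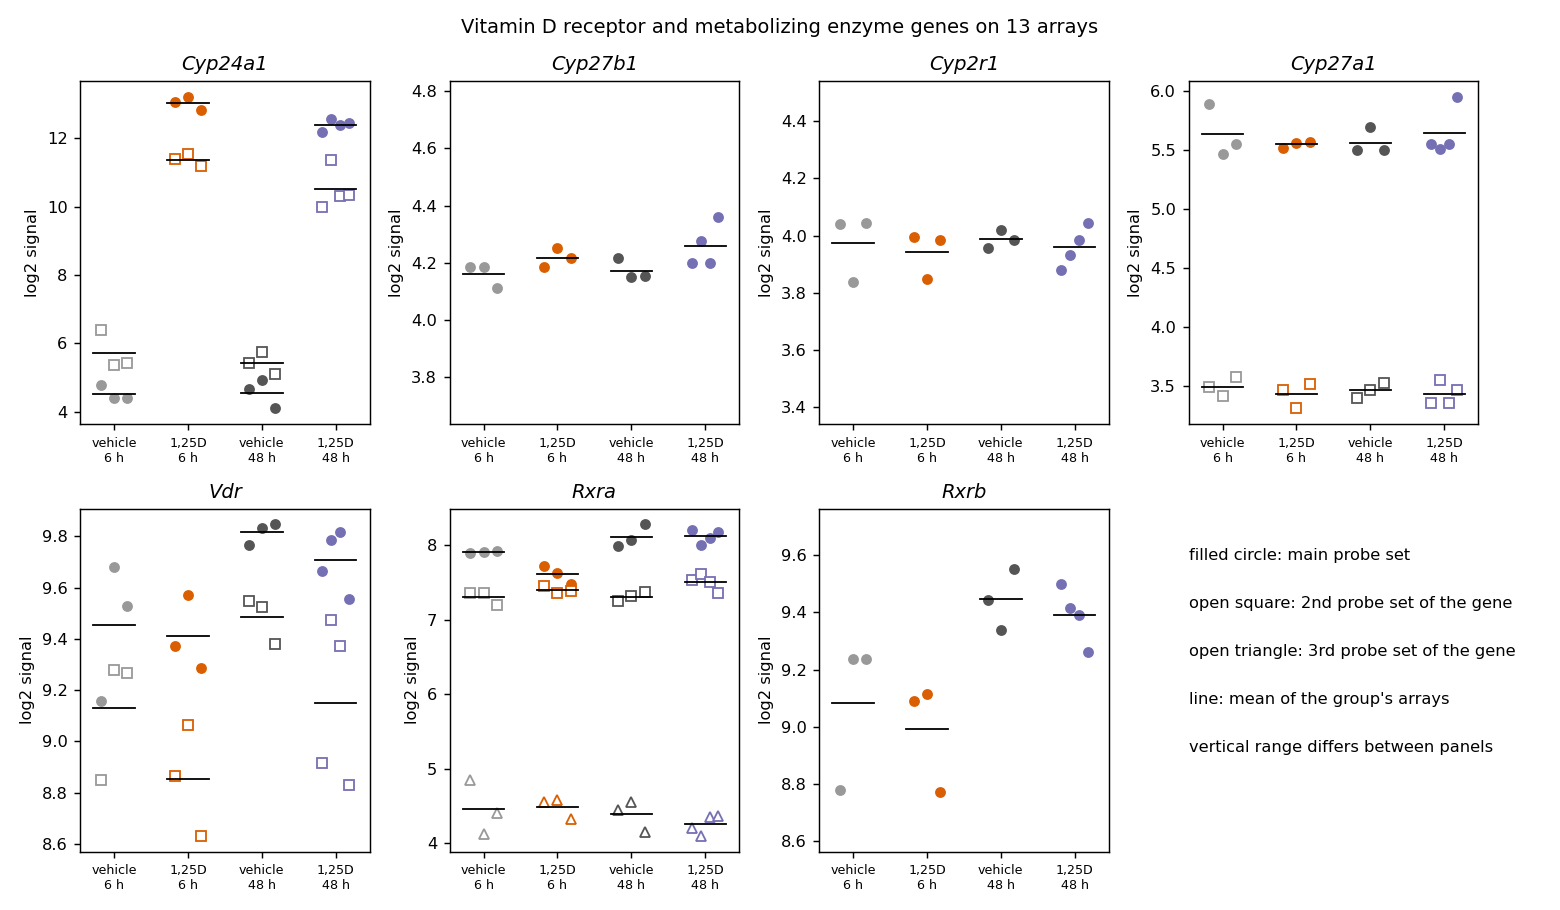
The log2 signal (vertical axis) of each of the 7 genes on the 13 arrays in 4 groups (horizontal axis); filled circles are the main probe set, open squares and triangles the 2nd and 3rd probe sets, lines are group means, and the vertical range differs between panels. Cyp24a1 moves from 4.10 to 4.92 in vehicle to 12.18 to 13.21 in 1,25D on its main probe set, while the vehicle and 1,25D points of the other genes lie close together.

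The 3 genes of hormone synthesis had low or middling signals and none was called in any comparison. Cyp27b1, which makes 1,25D itself, had signals of 4.18, 4.18 and 4.11 in vehicle and 4.18, 4.25 and 4.22 in 1,25D at 6 h. At 48 h they were 4.22, 4.15 and 4.15 in vehicle and 4.20, 4.28, 4.20 and 4.36 in 1,25D. The groups overlapped at both times, and all 4 group means lay between percentiles 16.9 and 19.6. The log2 change was 0.06 at 6 h (interval -0.10 to 0.22) and 0.09 at 48 h (interval -0.07 to 0.24), with adjusted p of 0.971 and 1.00 in limma, and without the 2 arrays that stood apart it was 0.07 and 0.05. Detection calls were not used here, so these values do not say whether the Cyp27b1 transcript was present, and a change in a transcript below the range of the probe set would not show.

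Cyp2r1, the main liver enzyme of the first hydroxylation, lay near the low end of its arrays, at percentiles 11.7 to 12.98. Its signals were 4.04, 3.84 and 4.04 in vehicle and 4.00, 3.85 and 3.99 in 1,25D at 6 h, and 3.96, 4.02 and 3.99 against 3.88, 3.93, 3.99 and 4.04 at 48 h. No group stood apart, with log2 changes of -0.03 at both times (intervals -0.20 to 0.14 and -0.19 to 0.13). Without the 2 arrays that stood apart they were 0.0024 and -0.05.

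Cyp27a1, a mitochondrial enzyme that also acts in bile acid synthesis, had signals near the middle of the array. They were 5.89, 5.47 and 5.55 in vehicle and 5.52, 5.56 and 5.57 in 1,25D at 6 h. At 48 h they were 5.50, 5.69 and 5.50 in vehicle and 5.55, 5.51, 5.55 and 5.95 in 1,25D. The highest value of either time was on an array that stood apart. The log2 change was -0.09 at 6 h (interval -0.41 to 0.24) and 0.08 at 48 h (interval -0.23 to 0.38), and without those 2 arrays it was 0.04 and -0.02. The direction of the Cyp27a1 estimate therefore turned at both times with 2 arrays left out, and no call was made either way. A second probe set, 1457665_x_at, lay between 3.31 and 3.58 on all arrays.

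Some signal values recur exactly between arrays. The value 4.18 of Cyp27b1, 3.99 of Cyp2r1, 5.55 of Cyp27a1 and 7.37 of the second Rxra probe set each stand on 3 arrays to every decimal given. Of all probe sets tested, 38.5% had such a recurring value, and in 82.5% of these it equalled the median over the 13 arrays. How these values arose is not given in the sources used here. They can make the spread of the 3 enzymes and of that Rxra probe set look smaller than it was. The same holds for any other probe set with a recurring value, and all of them enter the fit.

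Vdr gave a high signal in all groups and was not called at either time of treatment. The main probe set, 1418176_at, read 9.16, 9.68 and 9.53 in vehicle and 9.37, 9.57 and 9.29 in 1,25D at 6 h. At 48 h it read 9.77, 9.83 and 9.85 in vehicle and 9.66, 9.79, 9.82 and 9.56 in 1,25D. Vehicle and 1,25D arrays overlapped at both times, and the group means lay at percentiles 88.4 to 91.1. The log2 change was -0.05 at 6 h (SE 0.14, interval -0.34 to 0.25, adjusted p = 0.979 in limma) and -0.11 at 48 h (SE 0.13, interval -0.38 to 0.16, adjusted p = 1.00). In folds the 6 h interval ran from 0.790 to 1.19.

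A second Vdr probe set, 1418175_at, read lower with 1,25D at both times without reaching a call. Its signals were 8.85, 9.28 and 9.27 in vehicle and 8.87, 9.06 and 8.63 in 1,25D at 6 h. They were 9.55, 9.53 and 9.38 in vehicle and 8.92, 9.47, 9.37 and 8.83 in 1,25D at 48 h. The groups overlapped at both times. The changes were -0.28 (interval -0.68 to 0.12, adjusted p = 0.971) and -0.34 (interval -0.71 to 0.04, adjusted p = 0.841). Both probe sets deviated together from their group means (Pearson's r = 0.82 over 13 arrays, 0.71 over the 11 arrays that did not stand apart). Without the 2 arrays the 6 h change of the main Vdr probe set was -0.20 and the 48 h change -0.06.

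Rxra, the retinoid X receptor best known as a partner of Vdr in epithelia, was read by 3 probe sets that differed in direction. On the main probe set, 1454773_at, the signals were 7.90, 7.91 and 7.92 in vehicle and 7.73, 7.63 and 7.49 in 1,25D at 6 h. All 3 treated arrays were below all 3 vehicle arrays. The change was -0.30 (SE 0.12, interval -0.57 to -0.03, unadjusted p = 0.033), and it was not called over the whole array (adjusted p = 0.759 in limma). At 48 h the signals were 7.99, 8.07 and 8.28 in vehicle and 8.20, 8.00, 8.10 and 8.17 in 1,25D. These overlapped, with a change of 0.01 (interval -0.25 to 0.26). Without the 2 arrays that stood apart the 6 h change was again -0.30 and the 48 h change was -0.01.

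The second Rxra probe set, 1425762_a_at, read 7.37, 7.36 and 7.21 in vehicle and 7.46, 7.37 and 7.39 in 1,25D at 6 h, a change of 0.09 in the opposite direction (interval -0.17 to 0.35). At 48 h it read 7.25, 7.32 and 7.37 in vehicle and 7.53, 7.61, 7.51 and 7.37 in 1,25D, a change of 0.19 (interval -0.05 to 0.43, adjusted p = 0.956). The dimmest, 1430497_at, lay near the low end at 4.10 to 4.85. Its changes were 0.03 at 6 h and -0.13 at 48 h, neither called. In their deviations from the group means the main probe set was scarcely related to the second (r = 0.06 over 13 arrays) or the dimmest (r = -0.04). No direction for Rxra under 1,25D can be given that holds over its probe sets.

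Rxrb, a widely expressed retinoid X receptor, was high in every group and was not called with treatment. Its probe set, 1416990_at, read 8.78, 9.24 and 9.24 in vehicle and 9.09, 9.12 and 8.77 in 1,25D at 6 h. At 48 h it read 9.44, 9.34 and 9.55 in vehicle and 9.50, 9.42, 9.39 and 9.26 in 1,25D. Both pairs of groups overlapped. The changes were -0.09 (interval -0.40 to 0.22) and -0.05 (interval -0.35 to 0.24), and without the 2 arrays -0.24 and -0.01.

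Counted as a set, 1 of the 7 genes was called at 6 h and 1 of 7 at 48 h, in both cases Cyp24a1. Over the whole array 0.852% of genes were called at 6 h and 2.39% at 48 h. The median log2 change of the 7 genes was -0.05 at 6 h and 0.01 at 48 h, beside -0.02 and -0.00 for all 18193 genes. At 6 h the arrays of both groups did not overlap for 2 of the 7 genes, Cyp24a1 and Rxra, against 10.2% of all genes, and at 48 h for Cyp24a1 alone, against 12.6%.

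**Figure D2:**
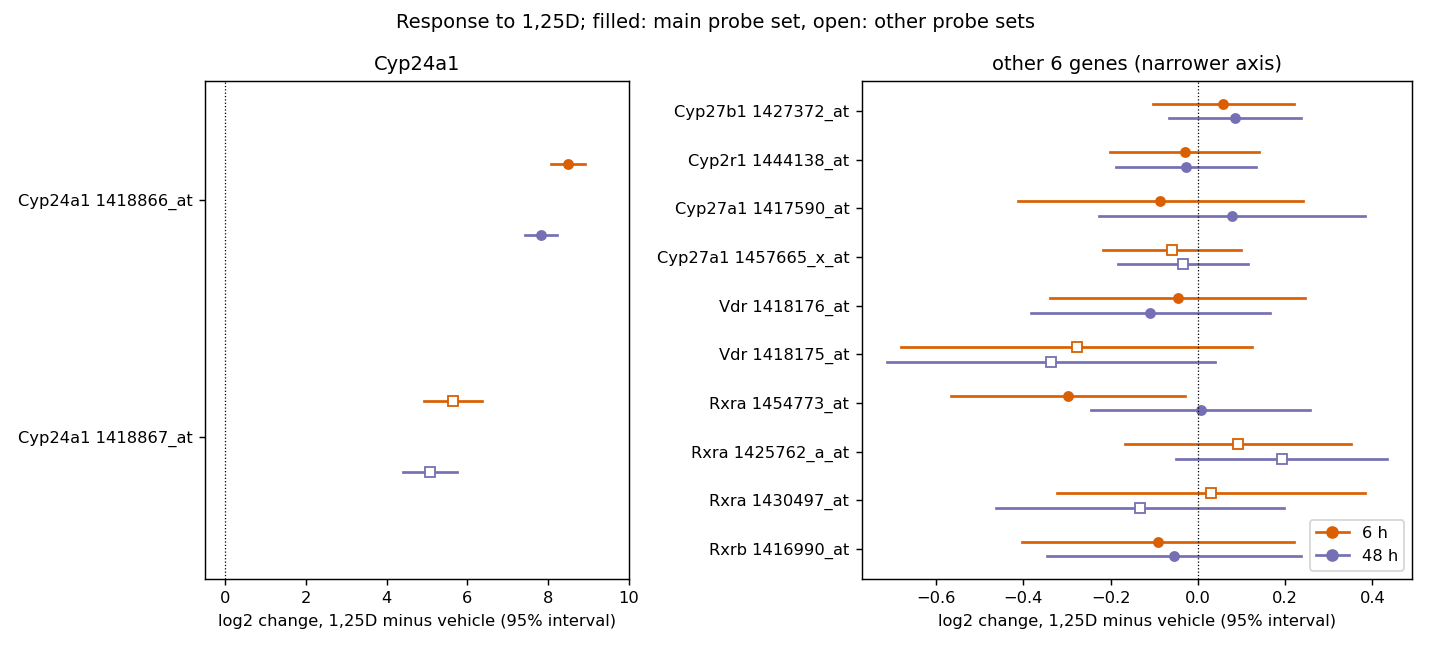
The log2 change of 1,25D minus vehicle (horizontal axis) at 6 h and 48 h with 95% intervals from the fit, for each probe set (vertical axis); filled points are main probe sets, open points the others, and the right panel has a narrower axis. The 4 Cyp24a1 points lie between 5.07 and 8.50, and every other interval includes 0 except that of the main Rxra probe set at 6 h (-0.57 to -0.03).

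Whether a response differed between 6 h and 48 h was asked with the difference of the responses. For Cyp24a1 the response was smaller by 0.66 log2 units at 48 h (48 h minus 6 h: -0.66, SE 0.27, interval -1.24 to -0.09, unadjusted p = 0.027). It was not called after adjustment (adjusted p = 0.756 in limma, and 0.206 to 1.00 over the alternatives). The second Cyp24a1 probe set gave -0.58 (interval -1.56 to 0.40). The largest positive difference among the 7 genes was 0.30 for Rxra on its main probe set (interval -0.06 to 0.67, adjusted p = 0.985). None of the 7 genes was called, against 0.632% of all genes (115 of 18193). An unadjusted p under 0.05 was reached by 1 of the 7 and by 1316 of 18193 genes.

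Time itself was compared within vehicle and within 1,25D. The 6 h and 48 h cultures differ in time, in the daily renewal of medium, in any further growth and in any processing day. These cannot be told apart. The vehicle arrays are those of the treatment comparisons too, so each comparison is given by its own values. In vehicle none of the 7 genes was called, against 18.6% of all genes. Of the 7, 2 had an unadjusted p under 0.05, as had 5350 of 18193 genes. Vdr was at 9.16 to 9.68 at 6 h and 9.77 to 9.85 at 48 h, a difference of 0.36 (interval 0.07 to 0.65, adjusted p = 0.121 in limma). All vehicle arrays at 48 h were above those at 6 h on this Vdr probe set and on the second one (0.35, adjusted p = 0.320). Rxrb showed the same separation with a difference of 0.36 (interval 0.05 to 0.67, adjusted p = 0.147). So did Rxra on its main probe set, with 0.20 (interval -0.07 to 0.47, adjusted p = 0.428). Such a lack of overlap was found in 31.0% of all genes. The other Rxra probe sets overlapped, with differences of 0.00048 on 1425762_a_at and -0.07 on 1430497_at. Without the 2 arrays that stood apart the differences on the main probe sets were 0.21 for Vdr, 0.21 for Rxrb and 0.20 for Rxra. Cyp24a1 differed by 0.03 between the vehicle groups (interval -0.39 to 0.45), and by 0.15 without those 2 arrays.

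Within 1,25D, 2 of the 7 genes were called, Cyp24a1 as lower and Rxra as higher at 48 h, against 23.4% of all genes. Cyp24a1 fell by 0.64 on the log2 scale (interval -1.03 to -0.24, adjusted p = 0.028 in limma), from 12.81 to 13.21 down to 12.18 to 12.56, and all 48 h arrays were below all 6 h arrays. The call was lost without 1,25D 6 h replicate 1 (-0.62, adjusted p = 0.095) or 2 (-0.54, adjusted p = 0.133), and without 1,25D 48 h replicate 1 (-0.57, adjusted p = 0.086) or 3 (-0.64, adjusted p = 0.064). On the second Cyp24a1 probe set the difference was -0.87 (adjusted p = 0.081), and its arrays overlapped. In order of level Cyp24a1 thus ran from 1,25D at 6 h to 1,25D at 48 h and then to both vehicle groups, which overlapped each other.

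Rxra rose 1.42-fold from 6 h to 48 h in 1,25D on its main probe set (log2 change 0.51, SE 0.12, interval 0.25 to 0.76, adjusted p = 0.0076 in limma). The 6 h arrays read 7.49 to 7.73 and the 48 h arrays 8.00 to 8.20, with no overlap, which 33.8% of all genes showed. Its second probe set differed by 0.10 (adjusted p = 0.676) and its dimmest by -0.23 (adjusted p = 0.408), so the call holds for 1 of 3 probe sets. Rxrb (0.40, interval 0.11 to 0.69, adjusted p = 0.063) and Vdr (0.30, interval 0.02 to 0.57, adjusted p = 0.152) were not called. Without the 2 arrays that stood apart both passed the threshold, Vdr at 0.35 (adjusted p = 0.038) and Rxrb at 0.44 (adjusted p = 0.016). The lowest Vdr and Rxrb arrays of the 1,25D 48 h group were both the array that stood apart.

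**Figure D3:**
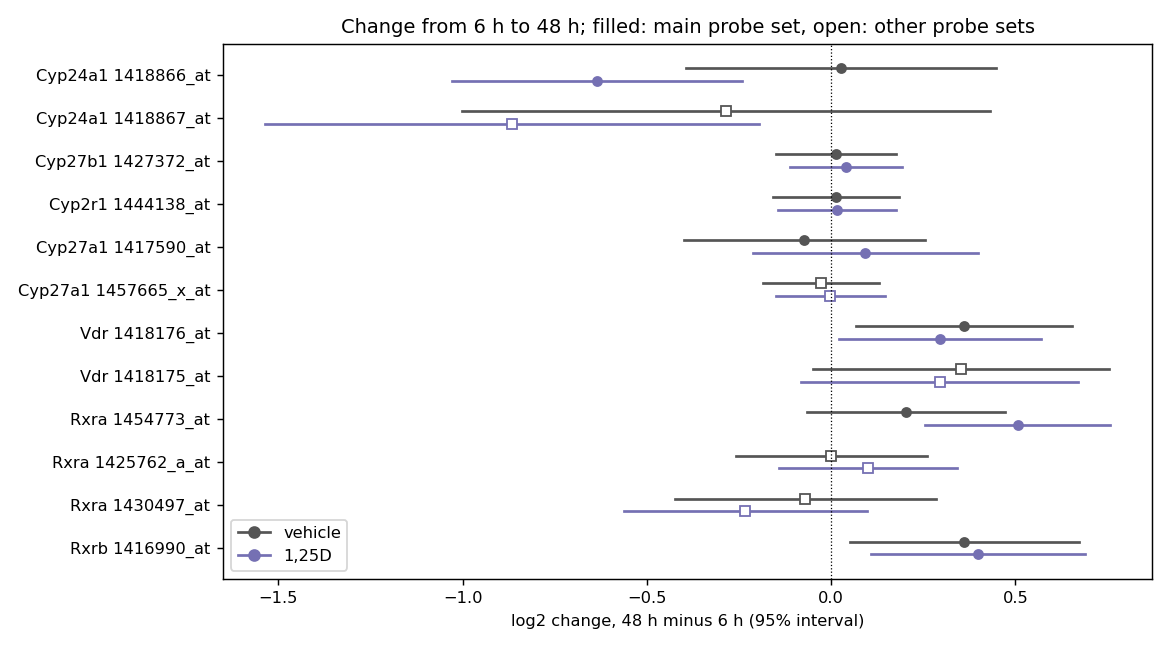
The log2 change of 48 h minus 6 h (horizontal axis) in vehicle and in 1,25D with 95% intervals from the fit, for each probe set (vertical axis); filled points are main probe sets and open points the others. Rxra lies at 0.51 in 1,25D on its main probe set and at 0.10 and -0.23 on the others, Cyp24a1 lies at -0.64 and -0.87 in 1,25D, and Vdr and Rxrb lie at 0.29 to 0.40 under both conditions.

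The receptor genes were then compared array by array, as deviations from their own group means, which removes treatment and time. Vdr and Rxrb deviated together, with Pearson's r of 0.80 over 13 arrays, higher than for 95.4% of all genes with Vdr. Both were lowest on vehicle 6 h replicate 1, with deviations of -0.30 for each, and both were low on 1,25D 48 h replicate 4 (-0.15 for Vdr and -0.13 for Rxrb). Over the 11 arrays that did not stand apart r was 0.42. For Rxra and Rxrb r was 0.41 over 13 arrays and 0.73 over 11, and for Vdr and Rxra 0.02 and 0.12. Cyp27a1 deviated against Vdr (r = -0.73) and Rxrb (r = -0.75) over 13 arrays, and with r = -0.07 and -0.46 over 11. Arrays share their hybridisation and scaling, so these correlations are descriptions.

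**Figure D4:**
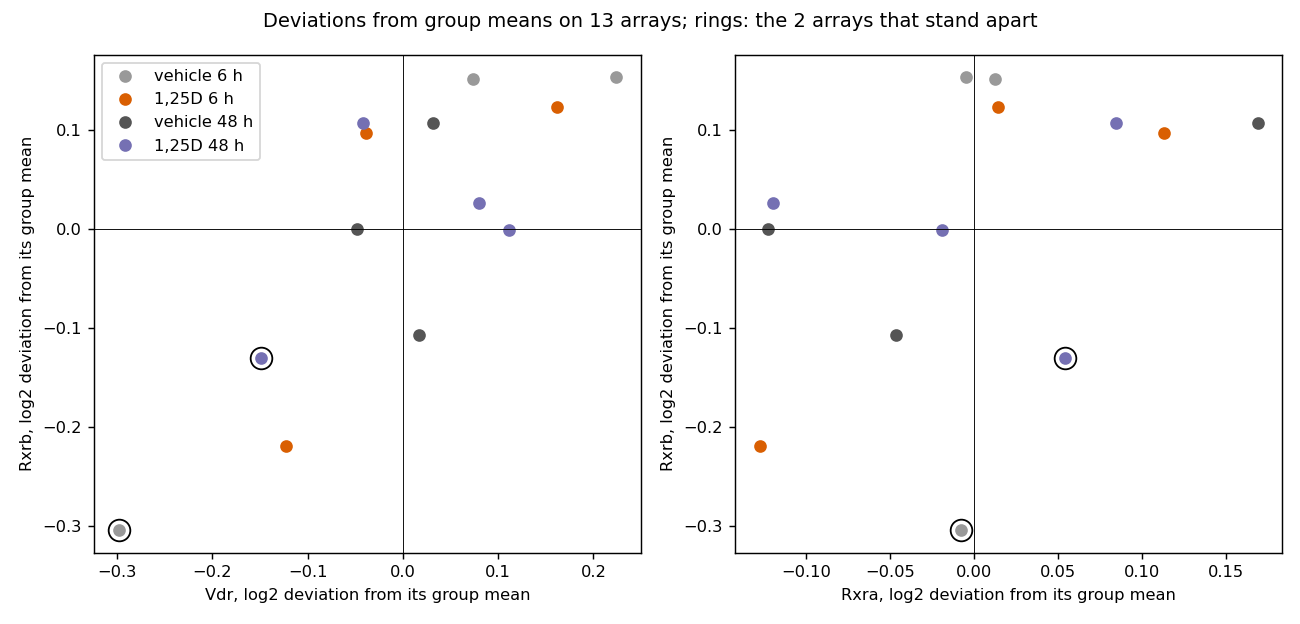
Deviations from the group mean on the log2 scale for Rxrb (vertical axis) against Vdr (left) and Rxra (right), 1 point for each of 13 arrays, coloured by group, with rings around the 2 arrays that stand apart. Both ringed arrays are low in Vdr and in Rxrb, and r for that pair is 0.80 with them and 0.42 without them.

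Genes with the pattern most like that of each member were named by Pearson's r over the 13 arrays, which share labelling and scaling within each array. For Cyp24a1, whose arrays form a treated and an untreated cluster, they were Serpinb9b (r = 0.97), Arg2, Nrp1 and Gdpd5 (each 0.96) and Sdcbp2 (0.95). Their group means show how far each moved beside Cyp24a1. Nrp1, a semaphorin and growth factor coreceptor, had means of 9.62 and 9.65 in vehicle and 11.03 and 10.60 in 1,25D at 6 h and 48 h. Gdpd5 had 8.07 and 8.01 against 9.78 and 9.28. Arg2, the mitochondrial arginase, had 8.32 and 8.35 against 9.43 and 9.80. Serpinb9b, the most alike in pattern, had 5.94 and 5.96 against 6.50 and 6.52, a smaller difference than those of the other 4. Likeness here thus tells little of the size of the change or of the order of the treated times. In 1,25D Arg2 was higher at 48 h than at 6 h, and Cyp24a1 was lower.

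The genes most like Vdr were Wdr13 (r = 0.97), Zfp827 (0.96), Kctd1 (0.95), Golgb1 (0.95) and Ephb6 (0.94), and those most like Rxra were Slc6a9 (0.95), Acvr1b (0.94), Tef, Syne4 and Shkbp1 (each 0.93). Acvr1b, an activin receptor, had means of 9.42 and 8.87 in vehicle and 1,25D at 6 h and of 10.15 and 9.91 at 48 h, and Slc6a9, a glycine transporter, had 8.96 and 8.34, then 9.74 and 9.74. In deviations from the group means the genes most like Vdr were Sipa1l1, Gpd1l (each 0.95), Pard3, Fbxl4 and Ak3 (each 0.94), and those most like Rxra were Ykt6 (0.90), Hoxd9, Mypop (each 0.88), Tm4sf4 (0.87) and Kif13b (0.86). For Cyp27b1 the highest values were 0.88 for Lcn8, 0.85 for Masp2, 0.83 for Btnl2 and Scgb3a2 and 0.82 for Galc. These rest on signals that differ little between arrays, and without the 2 arrays that stood apart the r of Scgb3a2 was 0.61. No gene was on the lists of both Vdr and Rxra.

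Other genes of the vitamin D system were followed as 6 lists of 72 genes, of which 61 were measured under their symbol. At 6 h none of the 61 was called in limma, against 0.852% of all genes. An unadjusted p under 0.05 was found for 9 of the 61 and for 1276 of 18193 genes, and the median log2 change was -0.01. At 48 h 1 was called higher and 1 lower, against 2.39% of all genes called. An unadjusted p under 0.05 was found for 9 of the 61 and for 1872 of 18193 genes, and the median was -0.03. The difference of the responses called none, against 0.632% of all genes, with 5 of the 61 and 1316 of 18193 at an unadjusted p under 0.05. In time, 6 rose and 5 fell in vehicle, where 18.6% of all genes were called, and 8 rose and 5 fell in 1,25D, where 23.4% were.

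Both calls at 48 h were among the 8 measured partners of activation and breakdown (of 11), whose median change was 0.16 at 6 h and 0.10 at 48 h. Cyp3a13, a cytochrome P450 of the family that oxidises steroids and drugs, rose 2.64-fold (log2 change 1.40, SE 0.21, adjusted p = 0.0026). Its signals at 48 h were 4.97, 4.73 and 5.08 in vehicle and 6.48, 6.48, 6.60 and 5.75 in 1,25D, without overlap. At 6 h they were 5.72, 6.20 and 6.12 in vehicle and 6.60, 6.21 and 6.69 in 1,25D, a change of 0.49 that was not called (adjusted p = 0.832). Cyp3a13 also fell by 1.09 on the log2 scale from 6 h to 48 h in vehicle (adjusted p = 0.0048), so that the 1,25D arrays at 48 h lay at the levels of the 6 h arrays. The difference between the responses, 0.91, was not called (adjusted p = 0.537).

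Cyp2j6, a cytochrome P450 whose family acts on fatty acids, was the gene called lower at 48 h. Its signals were 8.85, 8.84 and 8.67 in vehicle and 7.97, 7.85, 8.08 and 7.60 in 1,25D at 48 h, a log2 change of -0.91 (SE 0.16, adjusted p = 0.0091). At 6 h they were 7.81, 8.39 and 7.92 in vehicle and 7.68, 7.92 and 7.96 in 1,25D, which overlapped. The vehicle arrays, which enter both comparisons, rose by 0.75 with time (adjusted p = 0.0094), while the 1,25D groups of both times overlapped. The call at 48 h was lost without vehicle 48 h replicate 1 (-0.88, adjusted p = 0.059) or 2 (-0.88, adjusted p = 0.060). A second probe set of Cyp2j6 changed by -0.48 without a call (adjusted p = 0.367). Fdx1, the ferredoxin that passes electrons to Cyp24a1, Cyp27b1 and Cyp27a1, read 10.42, 10.37 and 10.42 in vehicle and 10.76, 10.60 and 10.70 in 1,25D at 6 h. These did not overlap, and the change of 0.28 was not called (adjusted p = 0.464).

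No call was made in the other lists at either time of treatment. Of transport and uptake, 5 of 6 genes were measured, with medians of 0.05 and 0.14, and the smallest p belonged to Lrp2 (megalin), at 0.13 and 0.22. Of other receptors that pair with retinoid X receptors, 13 of 14 were measured, with medians of -0.15 and -0.03. Thra, a thyroid hormone receptor, had the smallest p at 6 h, with 7.83, 7.55 and 7.72 in vehicle and 7.23, 7.08 and 7.36 in 1,25D (-0.47, adjusted p = 0.256), and Rarb, a retinoic acid receptor, at 48 h (-0.86, adjusted p = 0.395, and -0.55 without the 2 arrays that stood apart). Of VDR coregulators, 13 of 15 were measured, with medians of -0.09 and -0.18. Hr, the hairless corepressor that binds Vdr, had the smallest p at both times, at 0.81 (adjusted p = 0.192) and 0.57 (adjusted p = 0.365).

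Of 19 textbook targets of the receptor outside the set, such as the calcium channel gene Trpv6, 15 were measured and none was called at either time, with medians of 0.06 and 0.08. Several were dim: Pth, Calb1, Fgf23, S100g and Slc8a1 lay at mean percentiles of 14.4 to 23.0, Tnfsf11 at 33.6 and Kl at 38.5. A change below the range of such probe sets would not show. The others ranged from Thbd at 48.8 to Cd14 at 98.0. Igfbp3, which binds insulin-like growth factors, had the smallest p, at 0.62 at 6 h (adjusted p = 0.206) and 0.37 at 48 h (adjusted p = 0.587). Of the 7 regulators of the renal hydroxylases, all were measured, with medians of -0.03 and 0.02. The smallest p there belonged to Fgfr1 at 6 h (0.75, adjusted p = 0.436) and Klb at 48 h (0.32, adjusted p = 0.886). Without the 2 arrays that stood apart these changes were 0.47 for Fgfr1 and 0.15 for Klb.

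**Figure D5:**
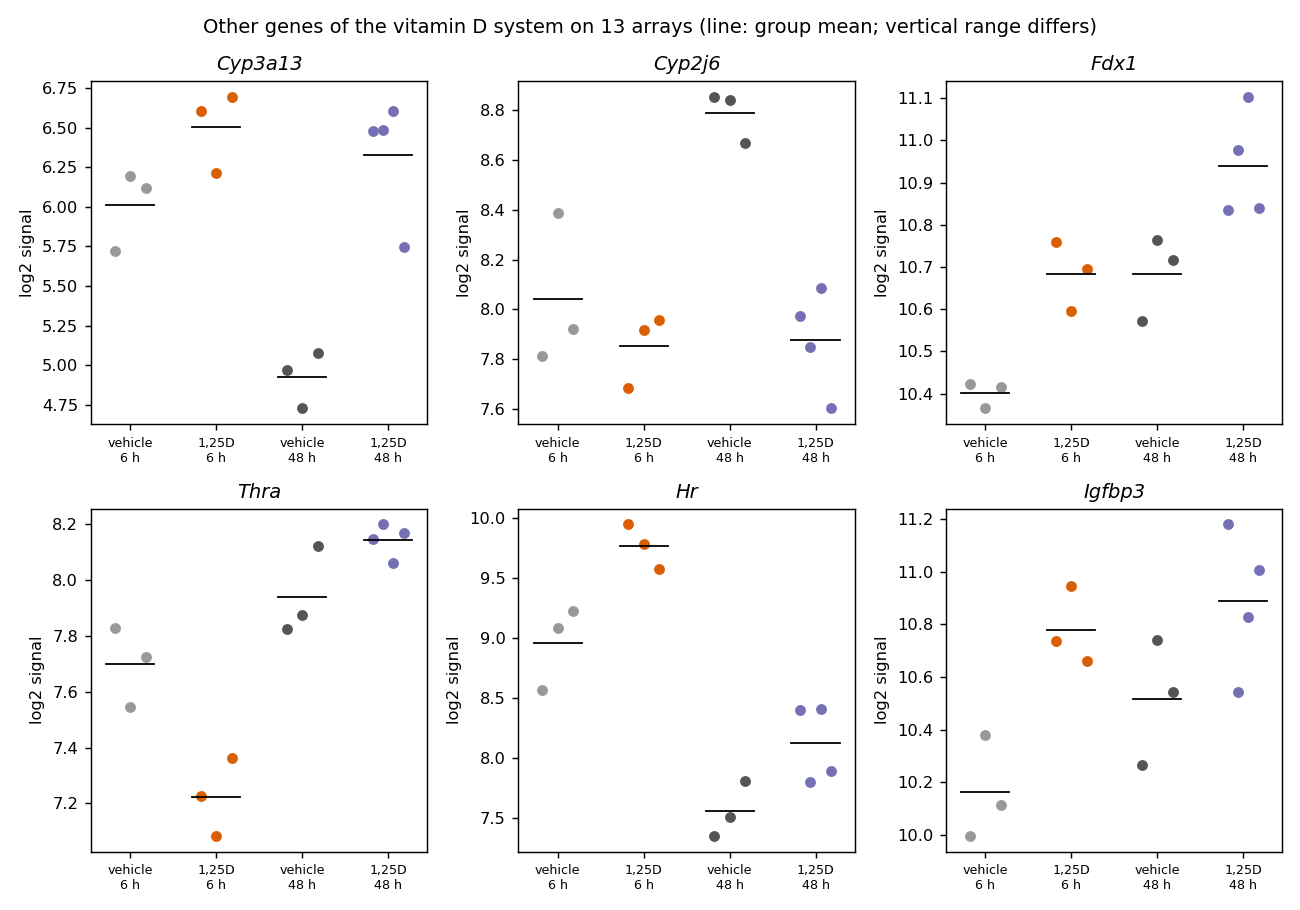
The log2 signal (vertical axis) of 6 other genes of the vitamin D system on the 13 arrays in 4 groups (horizontal axis), with lines at the group means and a vertical range that differs between panels. Cyp3a13 and Cyp2j6 are the genes called at 48 h, and in both the vehicle 48 h arrays (4.73 to 5.08 and 8.67 to 8.85) lie apart from the other 3 groups' means.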

How the data were processed

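RNA from 13 samples was measured on Affymetrix mouse arrays, with 5 ug of total RNA made into biotin-labelled cRNA per the labels' protocols. The authors' deposited values are log2 signals. The submitters' processing notes name MAS5 with no version or role, and any other step of background correction or normalization is not given in the sources used here. The design text names a smaller chip than the 45101 probe sets of the table; names came from the platform annotation given with it (34945 probe sets with 1 symbol, 932 with several, which named no gene, and 9160 with none). The design had allowed for linear values with an offset of 16; the values were already log2 and were used as given, with offsets of 16 and 64 as alternatives. Group and replicate came from the titles. In some descriptions of treated samples the last digit of the hormone's name differs.

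After 64 control probe sets were removed, group means were fitted to 45037 probe sets on all 13 arrays in limma 3.58.1 (R 4.3.3; eBayes with an intensity trend, two-sided). Benjamini-Hochberg adjustment ran over all of these, and called means an adjusted p under 0.05; rose and fell refer to calls. Figures used matplotlib 3.10.9 (Python 3.11.15). The scripts were tested on simulated data. Percentiles are those of a probe set within its array. Probe sets of different genes differ in affinity, so their levels are not compared.

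The members and lists were chosen with earlier results of these data known. Named were the members, list genes called with treatment or else of smallest p in a list, and the 5 genes most like Cyp24a1, Vdr, Cyp27b1 and Rxra. The alternatives tried were quantile normalization, offsets, centring on the median, a fit without the trend, fitting only the 2 groups compared, array weights, the replicate number as a block, leaving out dim (lowest 40%) or cross-matching probe sets, other probe sets, each array in turn, and both arrays that stand apart.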

Additional observations from a re-analysis of the deposited data

Results flagged for a closer look

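In the 1,25D 48 h group of 4 arrays, 1 array lay far from the other 3 for 3 of 22 probe sets tested, and each time it was replicate 4, which stands apart over all genes. For Cyp27a1 its gap to the nearest array was 0.908 of the group's range, for Rarb 0.893 and for Cyp3a13 0.853. Chance alone marks about 1 in 20 such groups. For Cyp27a1 the array was the highest (5.95), and for Cyp3a13 the lowest (5.75). Without both arrays that stand apart the 48 h change of Cyp3a13 was 1.60 (adjusted p = 1.7e-05 in limma), that of Rarb was -0.55 (adjusted p = 0.077) and that of Cyp27a1 was -0.02. The part of the array in the main values was not tested beyond this.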

How the results depend on the processing

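Of 848 values of the 7 genes under alternatives, 759 kept their direction and their side of the threshold, 73 that were never called changed sign, 9 gained a call, 6 lost one and 1 turned: Rxra from 6 h to 48 h in 1,25D was -0.23 on probe set 1430497_at. The rise of Cyp24a1 was called in all 25 alternatives at both times, at 5.65 to 8.62 and 5.07 to 8.01. Its fall from 6 h to 48 h in 1,25D was called in 20 of 25. For Cyp27b1 and Cyp2r1, left out with the dimmest probe sets, there were fewer alternatives, and fitting only 2 groups could not be run for the difference.

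The number of the 7 genes called was 1 with quantile normalization for time in vehicle, where it was 0. It was 4 with quantile normalization, with array weights and without both arrays that stand apart for time in 1,25D, where it was 2. Leaving out 1 array gave 1 at 6 h, 1 at 48 h, 0 for the difference, 0 for time in vehicle and 1 to 3 for time in 1,25D.

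Over all probe sets, 262 were called at 6 h, and 121 with only 2 groups, 400 with array weights and 425 without both arrays. At 48 h 600 were called, and 1639 with array weights and 924 without both. The difference called 162, and 376 and 307. Time in 1,25D called 7384, and 11818 with array weights. Leaving out 1 array gave 173 to 323 at 6 h (lowest without 1,25D 6 h replicate 1), 356 to 696 at 48 h, 88 to 186 for the difference, 4070 to 6184 for time in vehicle and 5567 to 8331 for time in 1,25D. The causes were not tested. At 48 h Rarb (-0.64, adjusted p = 0.039 in limma) and Hr (0.72, adjusted p = 0.012) were called with array weights.

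Replicate numbers are shared between groups, but same-numbered arrays did not deviate together throughout (r of 0.28, 0.22 and 0.07 at 6 h and -0.01, -0.53 and 0.39 at 48 h). No values for arrays of unlike number are given beside these, so they cannot decide whether the number pairs arrays. The main fit did not use the number. With the replicate number as a block 279, 534, 146, 5722 and 6701 probe sets were called in the 5 comparisons, and 1, 1, 0, 0 and 2 of the 7 genes. Dim genes near the low end of the array, Cyp27b1 and Cyp2r1 above all, limit what can be seen.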
